A study of Mus musculus with 2 samples.

Results

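The 4 members of the Ifitm family described here, Ifitm1, Ifitm2, Ifitm3 and Ifitm10, were taken by gene symbol from the 32285 genes of single-cell RNA libraries of mouse tongue epithelium. The libraries came from male B57BL/6 mice aged 8 to 12 weeks, 1 library collected at Zeitgeber time 0 (ZT0, lights on by convention) and 1 at ZT12 (lights off). Both groups were untreated as far as the labels say, which do not give how many animals went into a library. The epithelium was minced, dissociated with TrypLE, a trypsin-like enzyme, and cells that excluded the dye 7-AAD were sorted before 3′ end libraries were made. The comparison of the times asks how the same tissue differs between the start and the end of the light phase.

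IFITM proteins are small membrane proteins of the cell surface and of endosomes that hinder the fusion of enveloped viruses with the cell. Interferons bind their receptors and switch on antiviral genes through a DNA element called ISRE, and Ifitm1, Ifitm2 and Ifitm3 are among the genes known to answer. Epithelia and stem cells also carry some of these genes without infection, whereas Ifitm10 is a more distant member whose function is little known.

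Ifitm2 (ENSMUSG00000060591, chromosome 7, 140954837 to 140955987, minus strand), Ifitm1 (ENSMUSG00000025491, 140967221 to 140969825, plus strand) and Ifitm3 (ENSMUSG00000025492, 141009586 to 141010770, minus strand) sit in 1 cluster in GENCODE M21 on GRCm38 (mm10), with 53.6 kb between Ifitm2 and Ifitm3. Ifitm10 (ENSMUSG00000045777, 142325837 to 142373753, minus strand) lies 1.32 Mb further along the same chromosome. The core of the ISRE, GAAA followed after any 2 bases by GAAA again, was looked for on both strands of RefSeq promoters of GRCm38.p6, from 250 bases before to 50 after each start. It was found in 3.44% of 32851 promoters. Ifitm3 held 2 copies and Ifitm2 held 1, while none was found in the searched promoters of Ifitm1 and Ifitm10. The only Ifitm1 promoter searched, chr7:140967826-140968125, lies inside the GENCODE span of that gene. The GENCODE start of Ifitm1 was therefore not searched. The windows of Ifitm2 and Ifitm3 are shown because they hold a match, with its letters in capitals. Whether the element bears on their levels was not tested.
Ifitm2: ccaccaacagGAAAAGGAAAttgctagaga
Ifitm3: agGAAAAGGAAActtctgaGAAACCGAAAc
The Ifitm2 window is chr7:140955988-140956017 and the Ifitm3 window chr7:141010715-141010744, both read on the minus strand. The copy of Ifitm2 spans bases -46 to -37 counted from the RefSeq start of transcription. In Ifitm3 the copies lie within the transcribed part, at bases 3 to 12 and 20 to 29 of the same count. For both genes the GENCODE start lies further upstream than the RefSeq start, so these offsets hold for RefSeq only. A match describes the letters only and shows no binding. Of the 24 genes of an interferon-stimulated list with a promoter in the table, 12 held the ISRE core, against 3.99% of all 27025 genes.

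The 1593 cells kept at ZT0 carried 49256011 UMIs (unique molecular identifiers, 1 for each captured transcript end whatever the transcript's length), and the 2620 cells kept at ZT12 carried 67059151. The median cell had 28401 and 23088 UMIs. Levels are given as CPM, the count scaled in the usual way to the total of the same cells, with exact Poisson 95% intervals. Ratios, ZT12 over ZT0 unless said otherwise, carry exact conditional binomial intervals. These intervals hold counting error and nothing else. Since each time has a single library, the times cannot be tested, a ratio compares 2 libraries, and the spread between animals is unknown. Cells were grouped without using any Ifitm gene, and named from keratin and cell cycle markers. Other interferon-stimulated genes and MHC genes, of antigen presentation, were allowed in the grouping. Basal cells (Krt5, Krt14) numbered 466 at ZT0 and 755 at ZT12, cycling cells (Mki67, Top2a) 204 and 111, differentiated cells (Krt13, Krt4) 613 and 1344, and filiform cells, with the hair-type keratin Krt36 of the filiform papillae, 92 and 153. The label of epithelial cells held for nearly all of them, since 22 ZT0 and 10 ZT12 cells carried immune markers. Some clusters came almost wholly from 1 library: clusters 9 (214 and 5 cells) and 2 (12 and 371) of the basal class, and cluster 11 (164 and 2) of the differentiated class. Leading genes of cluster 11 included Cxcl10, Gbp2 and Ifit1, and those of cluster 9 Psmb8 and H2-Q7. Ratios within clusters or without these clusters therefore depend on a grouping that used such genes.

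Ifitm3 was the most abundant member at ZT0 and stood below Ifitm2 at ZT12. Its level was 445 CPM (439 to 450) in the ZT0 library and 154 CPM (151 to 157) in the ZT12 library, so the ratio was 0.347 (0.339 to 0.356). The levels of Ifitm2 were 208 and 181 CPM, with a ratio of 0.871 (0.849 to 0.895). The pair thus differed by time to very unequal degrees. Ifitm10 was at 7.76 and 9.66 CPM, a ratio of 1.25 (1.10 to 1.42). Ifitm1 had only 23 UMIs at ZT0 and 34 at ZT12 over all cells. For a size rule, a gene had to have a mean of at least 50 CPM, a log2 ratio of CPM plus 1 of at least 1 in size, and an interval that left out 1. An interval below 1 alone is common, held by 35.2% of 5805 genes with a mean of at least 20 CPM in all cells. Of 2832 genes tested in all cells by the size rule, 0.847% met it as lower at ZT12 and 0.318% as higher. Ifitm3 met it, with 14 of the genes tested having a lower ratio, while Ifitm2 was tested and did not meet it. Ifitm10 and Ifitm1 were under the minimum level.

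Among the 4 keratinocyte classes the level of Ifitm3 was highest in basal cells and lowest in filiform cells in both libraries, although single clusters crossed this order, such as differentiated cluster 11 (596 CPM) and basal cluster 6 (358 CPM) at ZT0. Basal cells had 877 CPM at ZT0 and 268 CPM at ZT12 (0.306, 0.295 to 0.318). Cycling cells had 486 and 262 CPM (0.540, 0.497 to 0.586). Differentiated cells had 293 and 89.4 CPM (0.305, 0.293 to 0.317). These 3 ratios had intervals below 1, as did 22.1%, 24.2% and 22.7% of all genes with a mean of at least 20 CPM in the same cells, so the size says more than the interval. Filiform cells had 53.0 CPM from 119 UMIs at ZT0 and 35.3 CPM from 106 UMIs at ZT12 (0.666, 0.508 to 0.873), in cells where 10.6% of genes had an interval below 1. At ZT0 each class stood above the next beyond its counting interval, and basal cells had 16.5 times the level of filiform cells. At ZT12 basal and cycling cells (268 and 262 CPM) did not differ beyond their intervals, and the span from basal to filiform narrowed to 7.60-fold.

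**Figure D1:**
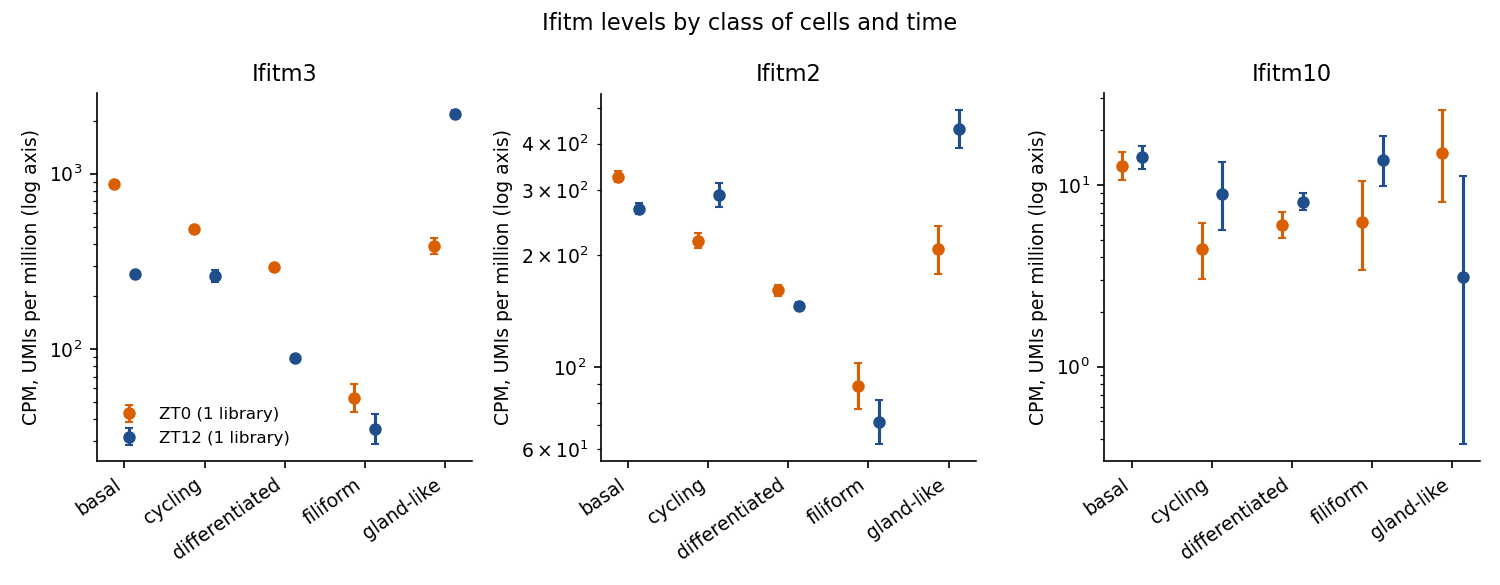
Each point is the level of Ifitm3, Ifitm2 or Ifitm10 in 1 class of cells of 1 library, in CPM on a log axis that differs between panels, with exact Poisson 95% intervals for counting error only. Ifitm3 was lower at ZT12 in the first 4 classes and higher in the gland-like cells, from 388 to 2181 CPM, while Ifitm2 stayed closer together in the first 4.

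The size of the difference in basal and differentiated cells rested in part on clusters found in 1 library. Leaving out clusters 2 and 9, Ifitm3 in the remaining 240 and 379 basal cells was at 560 and 291 CPM, a ratio of 0.519 (0.491 to 0.549) in place of 0.306. Without cluster 11, differentiated cells were at 180 and 88.3 CPM, a ratio of 0.491 (0.469 to 0.515) in place of 0.305. In both classes the ZT0 level dropped and the ZT12 level moved much less. By the size rule, Ifitm3 was lower in basal cells (0.447% of 2909 genes met it as lower) and in differentiated cells (0.488% of 2666). In basal cells it no longer met the rule's limit without the 1-library clusters. In cycling cells it did not meet the rule, which 4.53% of 3049 genes met as lower. In filiform cells its mean was under 50 CPM, and 0.322% of 2795 genes met the rule as lower there. The cycling class itself differed in makeup, with 187 and 39 cells in cluster 7, led by mitosis genes, and 17 and 72 in cluster 15, led by replication genes. Within cluster 7 the levels of Ifitm3 were 468 and 235 CPM, and within cluster 15 they were 735 and 278 CPM.

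Ifitm2 kept a flatter profile over the classes and between the times. Basal cells had 326 CPM at ZT0 and 268 CPM at ZT12 (ratio 0.822, 0.784 to 0.861), which became 291 and 277 CPM (0.949, 0.889 to 1.01) without the 1-library clusters. In cycling cells Ifitm2 was higher at ZT12, at 219 and 291 CPM (1.33, 1.22 to 1.45), but the clusters of this class differed. Within cluster 7 the ratio was 1.26 (1.10 to 1.44), and within cluster 15 it was 0.891 (0.748 to 1.07), from 344 and 306 CPM. Differentiated cells had 161 and 147 CPM (0.911, 0.875 to 0.948). Filiform cells had 89.1 and 71.3 CPM (0.800, 0.657 to 0.975). The highest class was 3.66 times the lowest at ZT0 and 4.08 times at ZT12. Cycling and basal cells at ZT12 overlapped in their intervals, and all other neighbours in the order were apart.

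Set against each other within the same cells, the UMIs of Ifitm3 and Ifitm2 give a balance from which scaling and depth drop out. The cluster makeup of a class does not drop out. There were 2.69 Ifitm3 UMIs for each Ifitm2 UMI in basal cells at ZT0 (2.59 to 2.80) and 1.00 at ZT12 (0.959 to 1.05). Differentiated cells went from 1.82 to 0.610, and cycling cells from 2.22 to 0.902. Without the 1-library clusters the ZT0 excess of Ifitm3 was smaller. Basal cells then held 3129 Ifitm3 and 1628 Ifitm2 UMIs at ZT0, and 2040 and 1941 at ZT12. Differentiated cells then held 3168 and 2741 at ZT0, and 3777 and 6253 at ZT12. In filiform cells Ifitm2 was the more abundant at both times, with 0.595 (0.470 to 0.750) and 0.495 (0.389 to 0.628) Ifitm3 UMIs for each of Ifitm2. Their coding parts, taken as the longest reading frame, were 79.6% identical over 411 aligned bases. Of the 451 words of 50 bases in the last 500 bases of the Ifitm2 transcript, 189 also occurred in another gene, Ifitm3 and several pseudogenes among them, against 63 for Ifitm3. No source used here says how reads that fit several genes were counted, so the absolute level of Ifitm2 is uncertain.

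Within single clusters the lower Ifitm3 at ZT12 recurred from one group of cells to the next. Of the 13 clusters with at least 30 cells in each library, Ifitm3 was lower at ZT12 in 11 with an interval below 1, and the median log2 ratio over the 13 was -0.99. It was higher in 1, the gland-like cluster 17, and the interval held 1 in cluster 14, a filiform cluster at 76.7 and 71.1 CPM. The other filiform cluster, cluster 12, was at 27.7 and 8.20 CPM, from 30 and 14 UMIs. Cluster 3, a basal cluster with 142 and 236 cells, was at 676 and 362 CPM (0.535, 0.503 to 0.570). Cluster 6, basal as well, was at 358 and 144 CPM (0.401, 0.351 to 0.457). For Ifitm2 the same 13 clusters gave 3 lower, 4 higher and 6 whose interval held 1, with a median log2 ratio of 0.02. Of the clusters of 1 library, cluster 9 had 1266 CPM of Ifitm3 at ZT0, the highest ZT0 level of any cluster. Cluster 11 had 596 CPM, below the 676 CPM of basal cluster 3 and far above the 30.7 CPM of cluster 4, a differentiated cluster of 58 ZT0 cells.

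**Figure D2:**
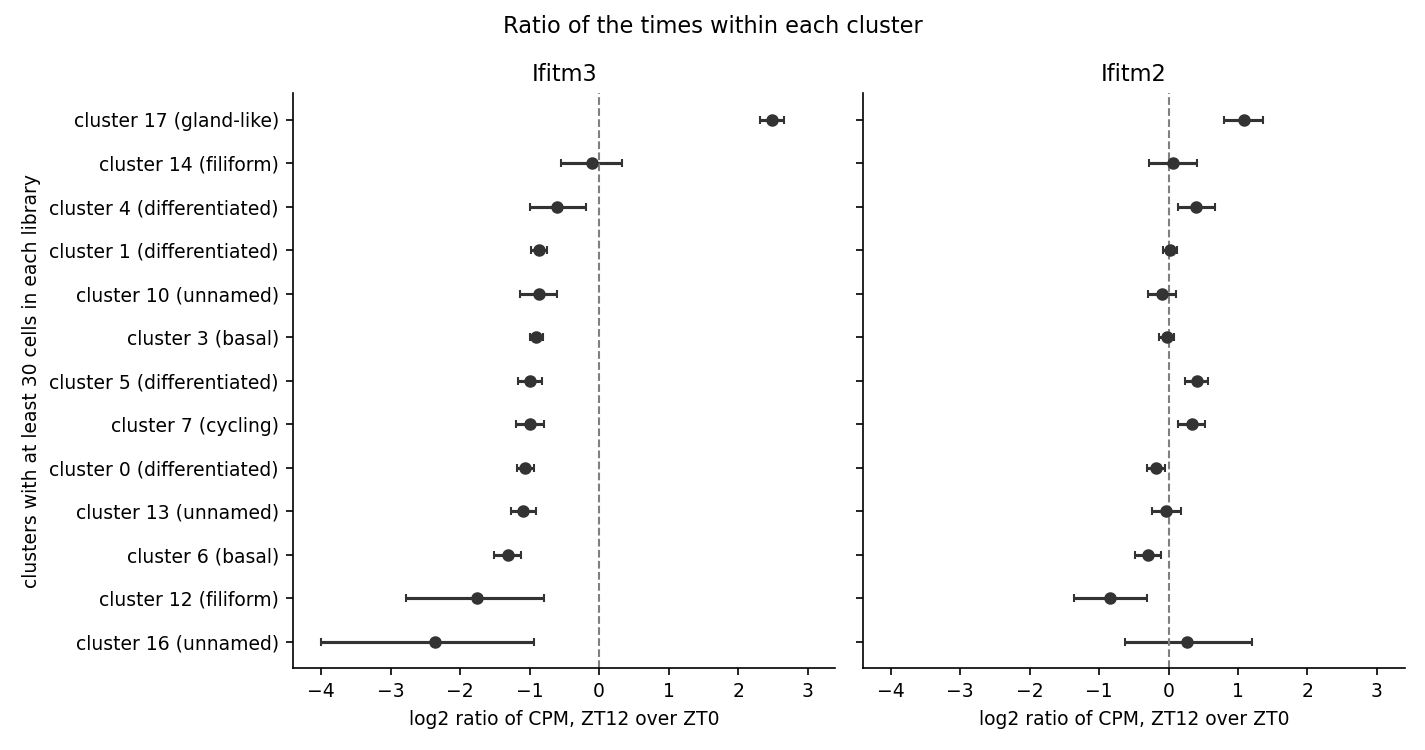
Points are log2 ratios of CPM, ZT12 over ZT0, of Ifitm3 and Ifitm2 in each of the 13 clusters with at least 30 cells in each library, with exact 95% counting intervals and a dashed line at no difference. For Ifitm3 12 points lie left of the line, 11 of them with intervals that leave it out, and cluster 17 lies right of it, while the points of Ifitm2 scatter on both sides.

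At equal depth, with every cell thinned to the same number of UMIs and shallower cells left out (132 at ZT0 and 261 at ZT12), both the number of Ifitm3 UMIs in a cell and the share of cells with any were lower at ZT12 in basal and differentiated cells. In basal cells the median was 8 UMIs at ZT0, with the middle 50% from 4 to 15, and 2 UMIs at ZT12, with the middle 50% from 1 to 5. Thinning does not even out cluster makeup. Before it, cluster 9 gave 214 of the 466 basal cells at ZT0 and 5 at ZT12. Cluster 11 gave 164 of the 613 differentiated cells at ZT0 and 2 at ZT12. The share of basal cells with a UMI was 97.3% (95.3 to 98.6) and 87.2% (84.4 to 89.7), or 98.1% and 90.3% before thinning. Those shares lie near the ceiling of 100%, and thinned further to 5000 UMIs they were 89.9% (86.8 to 92.5) and 66.2% (62.7 to 69.6). Cycling cells held a UMI in 94.2% and 93.5% of cells, shares whose intervals overlapped, while their mean went from 6.62 to 3.24 UMIs. In differentiated cells the share was 67.5% (63.6 to 71.3) at ZT0 and 49.9% (47.1 to 52.6) at ZT12, or 82.4% and 66.0% before thinning. Filiform cells held one in 45.3% (33.8 to 57.3) and 27.5% (19.4 to 36.9), with overlapping intervals. No class lacked the gene, so the part of free RNA in these shares could not be read off a negative cell type. The lowest share of the clusters named here was 11.3% (4.66 to 21.9), in cluster 12 at ZT12. Ifitm2 was found in 84.1% of ZT0 and 80.8% of ZT12 cells at this depth, from 96.6% of basal cells to 58.7% of filiform cells at ZT0.

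**Figure D3:**
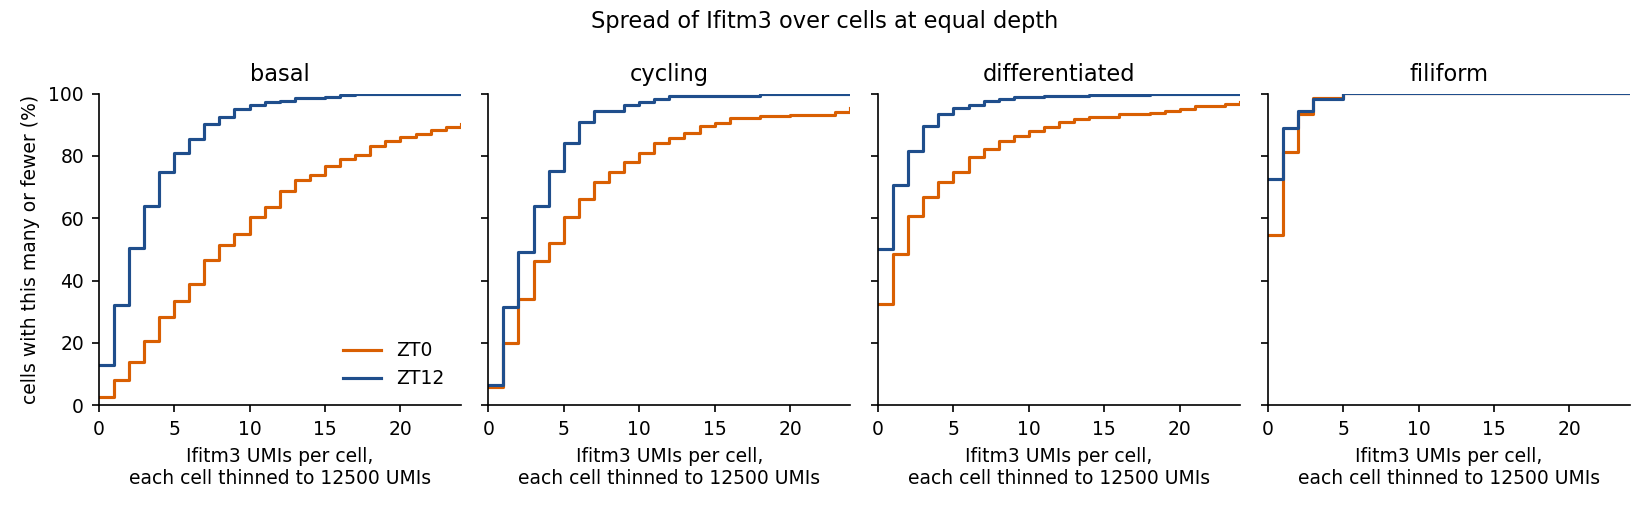
Each step line gives the percent of cells with at most the number of Ifitm3 UMIs on the x axis, up to 24, for each class and library after thinning every cell to the number of UMIs on the axis label. The ZT12 line lies above the ZT0 line in basal and differentiated cells, where medians were 8 against 2 and 2 against 0 UMIs. The cluster makeup of these classes differs between the libraries.

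The UMIs of Ifitm3 were spread more unevenly over cells than those of Ifitm2. The 10% of ZT0 cells richest in Ifitm3 held 40.1% of its UMIs, and 47.9% at ZT12, against 24.6% and 26.8% for Ifitm2. These shares rest on unthinned UMIs, so the depth of a cell and the mean count enter them. Cells with Ifitm2 more often also held Ifitm3, by a margin that differed between classes. In differentiated cells at ZT0, 76.3% of cells with an Ifitm2 UMI and 38.7% of those without one held Ifitm3 after thinning, and at ZT12 58.3% and 25.6%. At ZT0 the shares were 97.4% and 93.3% in basal cells, and 94.7% and 90% in cycling cells. In those cycling cells the mean of Ifitm3 was 6.55 UMIs with Ifitm2 and 7.20 without. These cells share their library and belong to several clusters, so the pairing is a description.

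In the gland-like cells, described because their values stood out, Ifitm3 and Ifitm2 were higher at ZT12. This cluster of 35 cells in each library carries Ltf, Wfdc18, Krt8 and Krt19, genes of secretory and simple epithelia. Aqp5, of the same gland markers, had only 0 UMIs at ZT0 and 2 at ZT12. The basal keratin Krt14 was also high, at 15145 CPM over both libraries. Ifitm3 was at 388 CPM at ZT0 (348 to 432) and 2181 CPM at ZT12 (2069 to 2298), 5.62 times higher at ZT12 (4.98 to 6.34), and the ZT12 level was the highest of any cluster with at least 30 cells. Ifitm2 was at 208 and 438 CPM, 2.11 times higher (1.75 to 2.56). Both met the size rule as higher, as 4.24% of 3039 genes did in these cells. At equal depth the median cell held 3 Ifitm3 UMIs at ZT0, over 32 cells, and 26 at ZT12, over 26 cells, so the higher sum was not the work of a single cell. The gland markers summed to 4557 and 7940 CPM, with Krt7 lower (690 and 294 CPM) and Wfdc18 higher (1206 and 3621 CPM). The 10 basal markers summed to 22731 CPM at ZT0 and 14134 CPM at ZT12, against 24599 and 30883 CPM in the basal class. The makeup of the cluster thus differed between the libraries, and its part in the result was not tested. The 6 taste markers, Krt8 among them, summed to 617 and 854 CPM and moved in both directions. In the ZT0 library 2 cells held Trpm5, Gnat3, Plcb2 or Tas1r3 UMIs and no ZT12 cell did, whereas Krt8 was at 500 and 830 CPM and Snap25 had 0 and 15 UMIs. Without those 2 ZT0 cells Ifitm3 was still 5.52 times higher at ZT12 (4.89 to 6.24). Ifitm10 had 13 UMIs at ZT0 and 2 at ZT12 there, a ratio of 0.206 with a wide interval (0.0225 to 0.908). Single markers listed for other cell types were higher at ZT12 along with Ifitm3. The 10 myeloid markers summed to 17.4 and 40.3 CPM, with 6 at 0 at ZT0 and 7 at ZT12. Among them Lyz2 had 0 and 16 UMIs, while Cd74, Ptprc and Tyrobp were at 0 in both libraries. Dcn, from the fibroblast list, was at 3.48 and 62.0 CPM (3 and 40 UMIs), and the other 5 fibroblast markers, collagens included, were at 0 at both times. In basal cells the fibroblast list summed to 762 and 425 CPM, with only 1 marker over 5 CPM at each time. Dcn was also a leading gene of unnamed cluster 13, so it does not single out fibroblasts here. The endothelial marker Cldn5 had 0 and 17 UMIs (26.3 CPM at ZT12), while Cdh5, Kdr, Emcn and Tie1 were at 0 in both. Whether other cell types had a part in the result was not tested.

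Few UMIs of Ifitm1 were found in keratinocytes. Basal, cycling and differentiated cells held 1, 3 and 2 UMIs at ZT0 and none at ZT12, and filiform cells held none in either library. In the 1344 differentiated cells at ZT12, 0 cells with a UMI allow a share of up to 0.274% of cells with a UMI at this depth, which sets no limit on how many express the gene at a low level. At ZT12, 28 of its 34 UMIs lay in the gland-like cells, in 8 of the 35, and 1 cell held 17 of them. There the level was 43.4 CPM at ZT12 against 1.16 CPM, a single UMI, at ZT0, a ratio of 37.4 with an interval from 6.19 to 1530. At ZT0, 16 of 23 UMIs came from the 22 immune-like cells, 15 of them from 1 cell. Over all cells its log2 ratio was 0.12 (-0.69 to 0.95), and it was -2.33 without the gland-like cells, which hold 28 of the 34 ZT12 UMIs. The other Ifitm symbols in the gene table were at similar depths, with 17 and 13 UMIs for Ifitm5, a gene known from bone-forming cells, 3 and 0 for Ifitm6, and 5 and 0 for Ifitm7.

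Ifitm10 was low in the 4 keratinocyte classes. As for Ifitm3, basal cells had the highest level in both libraries, but the other classes followed in another order. In none of the 4 classes was Ifitm10 lower at ZT12. It was at 12.8 and 14.2 CPM in basal cells (ratio 1.11, 0.888 to 1.39). Levels were 4.41 and 8.89 CPM in cycling cells (2.01, 1.13 to 3.54, from 33 and 23 UMIs). Within cluster 7 they were 4.30 and 4.25 CPM (0.989, 0.253 to 2.81), and within cluster 15 the ratio was 1.93 with an interval holding 1 (0.567 to 10.2). They were 6.02 and 8.10 CPM in differentiated cells (1.35, 1.11 to 1.64). Filiform cells had 6.24 and 13.7 CPM (2.19, 1.17 to 4.35, from 14 and 41 UMIs). That log2 ratio of 1.13 became 0.50 when the cells with the top 5% of doublet scores were left out, with the clusters rebuilt. At ZT0 basal cells stood above the other 3 classes, which overlapped. At ZT12 the intervals of each neighbouring pair overlapped. In 11 of the 13 clusters the interval of the ratio held 1. At equal depth 9.17% of ZT0 and 10.8% of ZT12 cells held a UMI, values near the level of a single UMI.

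Other interferon-stimulated genes were lower at ZT12 alongside Ifitm3. The list, which holds no Ifitm gene, had 11 of 34 genes at a mean of at least 20 CPM in all cells, and 9 of these were at least 1.5-fold lower and 0 higher, where 2.96% of 5805 genes were lower and 0.947% higher. Its median log2 ratio was -1.20, against -0.01 over all genes at that level. Ifi27l2a, which encodes a small interferon-induced protein, was at 579 and 23.7 CPM, a ratio of 0.0408 (0.0388 to 0.0430). Isg15, a modifier related to ubiquitin, was at 82.8 and 4.37 CPM, Oasl2 of the oligoadenylate synthetase family at 44.3 and 2.01 CPM, and Bst2, which tethers budding virus, at 42.2 and 4.97 CPM. These 4 genes differed more between the times than Ifitm3, and Ifi27, at 173 and 178 CPM, had a ratio near 1 (1.03, 0.999 to 1.06). By class, 6 of 8 measured genes were lower in basal cells (2.13% of genes), 10 of 12 in differentiated cells (1.73%), 5 of 7 in cycling cells (9.15%) and 1 of 3 in filiform cells (2.75%). Earlier results had shown this list as lower at ZT12, so it is no independent support. Isg15, Oasl2 and Bst2, among others, reached the minimum mean only through their ZT0 level. The filter thus lets in genes that are high in 1 library, and the counts are a description.

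None of the 7 interferon ligand genes listed reached a mean of 20 CPM in the 4 classes. Of the genes whose proteins act on or with IFITM proteins, 0 of 5 measured in all cells differed by 1.5-fold in either direction. Among all 5805 genes at that level, 2.96% were lower and 0.947% higher by as much, so a count of 0 among 5 genes says little. Nedd4, a ubiquitin ligase that marks IFITM3 for degradation, was at 235 and 243 CPM, and Zdhhc20, which attaches the palmitate that anchors it in membranes, at 63.5 and 65.1 CPM. Vapa, a partner at the endoplasmic reticulum, was at 214 and 220 CPM, and Osbp, a sterol carrier that binds Vapa, at 33.4 and 30.7 CPM.

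Ifitm3 and the summed CPM of the list did not rank the cells alike. That sum is led by a few abundant genes and is no even measure of the list. In all cells its highest genes were Ifi27l2a (579 and 23.7 CPM), Ly6e (266 and 141 CPM) and Ifi27, which was level between the times (173 and 178 CPM). Cluster 11 had the highest list sum, 4093 CPM at ZT0, with 596 CPM of Ifitm3, and cluster 9 had 2568 CPM of the list with 1266 CPM of Ifitm3. Differentiated cluster 4 carried 1414 CPM of the list at ZT0 and only 30.7 CPM of Ifitm3, whereas basal cluster 3 carried 795 CPM of the list and 676 CPM of Ifitm3. In the gland-like cells the list sum was lower at ZT12, 1723 CPM against 2494 CPM, while Ifitm3 was higher. Filiform cluster 14 had list sums of 277 and 130 CPM with nearly level Ifitm3. In differentiated cluster 8, with only 29 ZT0 cells, the list sum was 1907 and 694 CPM while Ifitm3 was at 53.3 and 66.0 CPM, a ratio whose interval held 1 (1.24, 0.975 to 1.59).

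**Figure D4:**
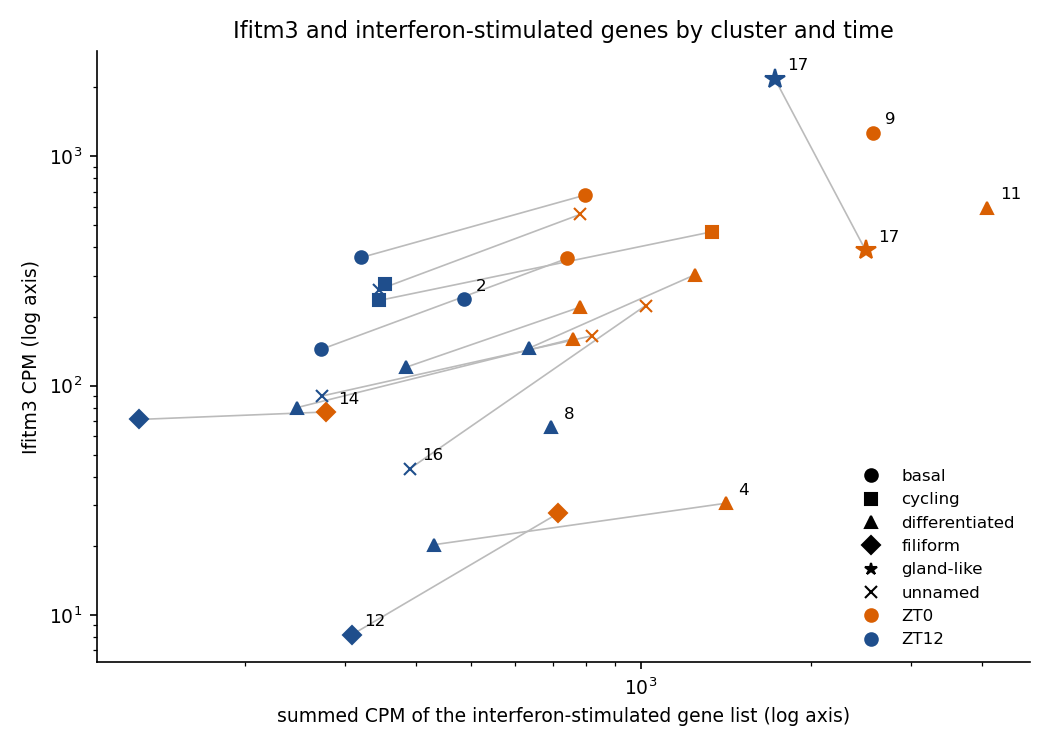
Each symbol is 1 cluster in 1 library with at least 30 cells, with the summed CPM of the interferon-stimulated list against the CPM of Ifitm3, both on log axes; grey lines join the 2 libraries of a cluster and numbers name clusters. Most lines slope up from ZT12 to ZT0, and the line of cluster 17 slopes the other way.

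Over the 31 sums of a cluster in a library with at least 30 cells, the gene whose log2(CPM + 1) was most like that of Ifitm3 among 5863 genes was Ifitm2, with a Pearson r of 0.85, or 0.89 after each library was centred on its own mean. The adhesion molecule Icam1 came next (r = 0.83), then the actin nucleation subunit Arpc1b (0.80), Afap1, Cuedc2, the actin-binding peptide gene Tmsb10, Socs3, St3gal4, Acin1 and Oat (0.78). No gene of the interferon-stimulated list was among these 10, but only genes with a mean of at least 20 CPM over the sums were compared. In all cells 11 of the 34 list genes reached that level, so the absence says little. For Ifitm2 the first were Trmt112 (0.89), Dcps, Ccnd1 and Cuedc2 (0.88), with Ifitm3 in 9th place. Ifitm10 had an r of -0.00 with Ifitm3 and 0.12 with Ifitm2. The points share 2 libraries and differ in depth and cell number, so these values rank genes and support no test.

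The few measured genes around the cluster were nearly level between the times, as most genes were. Among 5805 genes with a mean of at least 20 CPM, 2.96% were at least 1.5-fold lower at ZT12 and 0.947% higher. Of 13 genes within 100 kb of Ifitm1, Ifitm2 or Ifitm3, 4 had a mean of at least 20 CPM, and their ratios ran from 0.955 to 0.992. They were the proteasome subunit Psmd13 (104 and 99.8 CPM), Bet1l, Ric8a and the desmosome gene Pkp3 (239 and 237 CPM). Near Ifitm10 the 1 measured gene of 10 was the lysosomal protease Ctsd, at 336 and 385 CPM (1.15, 1.12 to 1.17).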

How the data were processed

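Poly-A 3′ single-cell libraries (10x Genomics) were made at 2 times, 1 library each. The deposited values are raw UMI counts per gene and barcode. Per the submitters' processing notes the authors used Cell Ranger 2.1.1 and mm10, whereas per the file headers the matrices came from version 4.0.0. This was not settled. The 1726 and 2819 barcodes were filtered at 500 genes and under 10% mitochondrial UMIs, which removed 129 and 191, and 2 barcodes occurred in both libraries. Scrublet (scanpy 1.11.5) called 4 and 8 doublets (0.25% and 0.30%), so doublets were in effect not removed. The 2000 most variable genes, without Ifitm genes and without genes of the clock, stress, early response, mitochondria, ribosomes and sex, gave 30 components, 15 neighbours and 19 Leiden clusters (leidenalg 0.10.2, resolution 1). Clusters were named by mean marker scores, with filiform cells set by Krt36 of at least 1000 CPM. Basal and differentiated cells were told apart by the higher score where the summed keratins (Krt5, Krt14 and Krt15 against Krt13 and Krt4) pointed the same way, and by these keratins alone where the scores lay within 0.25. These rules were chosen once the clusters had been seen, and keratins alone named cluster 0. Clusters 10, 13 and 16 (161 and 212 cells) stayed unnamed. Counts were not corrected for free RNA.

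Positions came from GENCODE M21 (32158 of 32285 identifiers matched), promoters from RefSeq. All 4 members are named, the 10 genes most like Ifitm3, up to 4 genes of each list with the largest ratio in size and mean CPM of at least 20, and measured neighbours within 100 kb. Ifi27 and the gland-like cluster were added after their values were seen. Members and lists were chosen with earlier results of these data known. In simulated counts for all cells over 32285 genes, all 66 genes changed 2.5-fold and 63 changed 4-fold met the size rule and 0 of 71 changed 1.5-fold did, which checks the computation only. Alternatives covered filters, doublets, scaling (edgeR 4.0.16 TMM), averaging, pseudocount, class makeup, clusters and thinning. One gene list and one promoter motif are not reported here.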

Additional observations from a re-analysis of the deposited data

Results flagged for a closer look

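Both abundant members moved in opposite directions between classes of cells, a difference that was not tested since each class has 1 library per time. The log2 ratio of Ifitm3, ZT12 over ZT0, was 2.49 in the gland-like cells and -1.71 in the differentiated cells. That of Ifitm2 was 1.08 in the gland-like cells and -0.32 in the filiform cells.

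The barcodes below the cell filter, 129 at ZT0 and 191 at ZT12, also held transcripts of both genes. Ifitm3 was at 270 CPM (218 to 331) in those of ZT0 and at 110 CPM (82.8 to 142) in those of ZT12. Ifitm2 was at 87.1 CPM (58.8 to 124) and 110 CPM (82.8 to 142). All 4 levels lie above the limits that a count of 0 would allow, 8.71 CPM at ZT0 and 5.87 CPM at ZT12, and the order of Ifitm3 between the times was that of the cells.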

How the results depend on the processing

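No paired analysis was possible because there was 1 library per time, and no replicate could be left out. All values here are log2 ratios, ZT12 over ZT0, unless named otherwise. In all cells Ifitm3 (-1.53) was -1.60 under the stricter cell filter, -1.46 with TMM scaling, -1.13 without clusters of 1 library, -1.31 with class makeup weighted alike, -1.75 in the 4 keratinocyte classes only and -1.73 without gland-like cells, the last chosen after seeing the data. In basal cells (-1.71) it was -1.78 under the stricter filter and -0.95 without clusters of 1 library. In cycling cells (-0.89) it was -1.06 as a mean over cells and -1.03 with clusters made without interferon and MHC genes. In differentiated cells (-1.71) it was -2.14 under the stricter filter, -2.04 without the 5% highest doublet scores, -1.02 without clusters of 1 library, -2.14 at resolution 1.5, -1.26 with clusters made without interferon and MHC genes and -1.77 with Ifitm genes allowed. Ifitm2 in all cells (-0.20) was -0.13 with TMM scaling and -0.10 with makeup weighted alike. Ifitm1 in all cells (0.12, interval holding 0) was 1.59 without the highest doublet scores, 1.23 with makeup weighted alike and -2.33 without gland-like cells. The count of genes past the size rule (33) was 101 with a minimum of 20 CPM and 458 with none, where more genes are tested. No ratio whose interval left out 0 changed sign under any alternative computed. Causes of these shifts were not tested beyond what each alternative leaves out. Cycling cells at resolution 0.5 (37 at ZT12) were too few, and Ifitm1 had no UMI at ZT12 in the keratinocyte classes, so these gave no value. Thinned to 5000 UMIs, Ifitm3 was found in 64.9% of ZT0 and 42.8% of ZT12 cells. Depth limits Ifitm10 and Ifitm1 most, and differences between animals cannot be seen with these libraries.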
